A study of Bos taurus with 27 samples.

Results

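The ileum of calves that received their colostrum 12 h after birth was compared with that of calves that received it 6 h after birth. All 9 calves of each group were used, 18 of the 27 in the series, and they were chosen by the feeding time in their titles. All were newborn male Holstein calves whose ileum was taken at 51 h of age, so every calf had already been fed colostrum when the tissue was collected. At this fixed age, calves fed at 12 h also had less time between colostrum and collection than those fed at 6 h. The delay and the time since feeding cannot be told apart. The 27 calves had been assigned at random to 3 feeding times. The 9 calves fed immediately after birth (0 h) entered the model of the spread between animals and are given below only for reference.

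Colostrum is the first milk, and in cattle it carries the maternal antibodies that the calf does not receive before birth. The epithelium of the newborn small intestine takes up whole antibody molecules for a short time after birth and then loses this ability, which is called gut closure. The ileum, where the small intestine ends, holds lymphoid tissue that meets the first bacteria. The ileum also takes up bile acids. The comparison asks whether a further delay of the first meal, from 6 h to 12 h, was followed by a difference in the transcripts of this tissue.

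The table counts reads for 24616 genes, each given by an Ensembl cattle identifier. The files pair none of these identifiers with a name, and 0 of them matched a symbol in the RefSeq gene table of assembly ARS-UCD2.0. Genes are therefore given by identifier, without position, sequence or function, and the label of the tissue could not be checked against marker genes. No pathway or cell type could be described either.

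No gene was called higher or lower in the calves fed at 12 h than in those fed at 6 h. Of 11429 genes with enough counts, edgeR's quasi-likelihood test called 0 higher (0%) and 0 lower (0%) at an adjusted p under 0.05, and the smallest adjusted p was 0.889. DESeq2 and limma voom also called 0 genes. Before adjustment, 585 genes (5.12%) had p under 0.05 in edgeR, of which 298 were higher (2.61%) and 287 lower (2.51%) at 12 h. By the same unadjusted limit there were 772 of 22939 genes in DESeq2, which was run without the filter on low counts, and 728 of 11429 in limma voom. In whole tissue, fewer cells of a type and less RNA per cell cannot be told apart, and this holds for every value below.

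Estimated differences were small and lay evenly on both sides of zero. The even balance is partly set by the scaling of the libraries, which assumes that most genes do not differ. The log2 fold change was above zero for 5725 genes and below zero for 5704, with a median of 0.00044. Its median size was 0.10 on the log2 scale. It stayed under 0.28 for 90% of the genes and under 0.57 for 99%. Unadjusted p-values were spread almost evenly between 0 and 1. An even spread would put 571 genes in each interval of 0.05, and the fewest found in an interval were 539 and the most 624, the latter in the interval from 0.05 to 0.10.

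**Figure D1:**
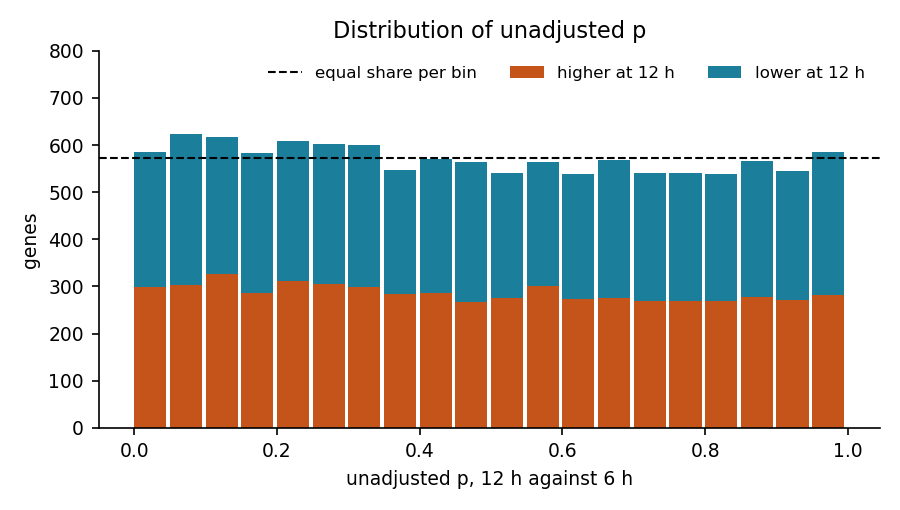
Number of genes (vertical axis) by unadjusted p of 12 h against 6 h in edgeR (horizontal axis, intervals of 0.05), with genes higher at 12 h in orange and lower in blue; the dashed line is an equal share of 571 genes. The interval nearest 0 holds 585 genes, 298 of them higher and 287 lower.

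What these libraries could show depended on how abundant a gene was. Genes were placed in 4 classes of nearly equal size by their mean level, given as CPM (counts per library brought to one common total). In the lowest class, with a median of 9.18 CPM, the typical (median) standard error of the log2 difference was 0.22. There the 95% confidence interval of the difference stayed inside 1.5-fold (up or down) for 47.3% of 2858 genes and within 2-fold for 93.5%. In the next class, with a median of 19.6 CPM, the interval lay within 1.5-fold for 83.9% of 2857 genes. In the highest class, with a median of 101.5 CPM, the median standard error was 0.095 and the interval lay within 1.5-fold for 94.1% of 2857 genes. A difference of 1.5-fold between the feeding times was thus outside the interval for most genes of high abundance, and for under 50% of the genes of low abundance.

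The share of genes at an unadjusted p under 0.05 was close to the share of all genes in every class. From the lowest to the highest class it was 4.79%, 5.11%, 5.25% and 5.32%. The 100 most abundant genes, all above 401 CPM, included 3 that were higher and 2 that were lower at 12 h at an unadjusted p under 0.05, or 5 of 100, and their smallest edgeR adjusted p was 0.926. Among the 10 most abundant genes none had an unadjusted p under 0.05. The log2 fold changes of these 10 lay between -0.07 and 0.43.

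**Figure D2:**
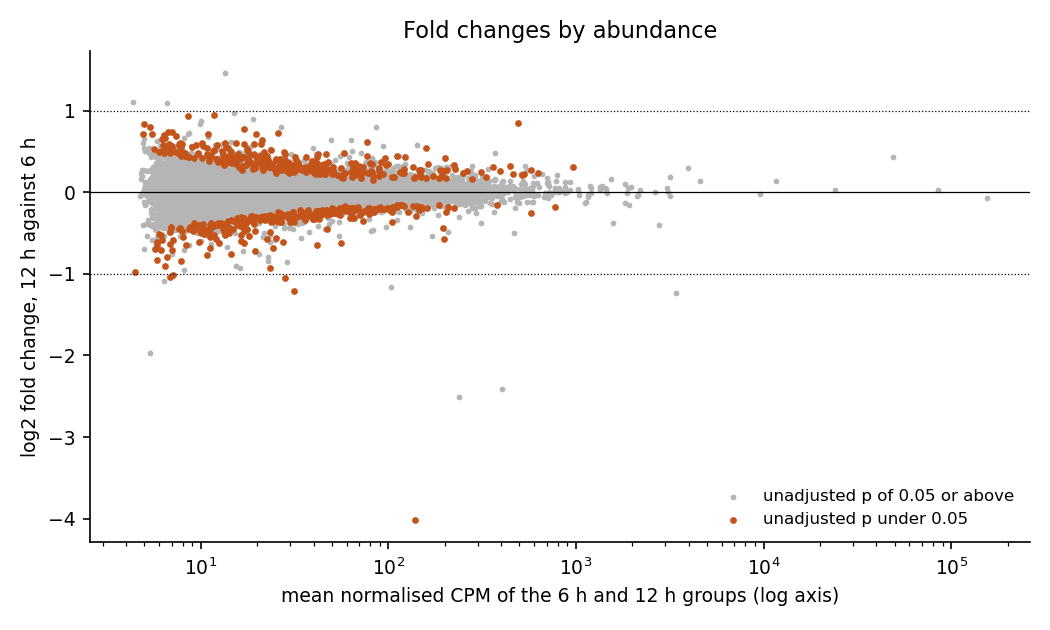
Log2 fold change of 12 h against 6 h (vertical axis) by mean normalised CPM of both groups (horizontal axis, log scale); each of the 11429 points is a gene, orange where the unadjusted p was under 0.05, and dotted lines mark 2-fold. The 585 orange points lie on both sides of zero in each of the 4 abundance classes, none is among the 10 most abundant genes, and 14 genes lie beyond 2-fold.

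Large estimated differences came from few genes. An estimate beyond 1.5-fold was found for 106 genes, 50 higher and 56 lower at 12 h, and 58 of these had an unadjusted p under 0.05. Beyond 2-fold there were 14 genes, 3 higher and 11 lower, and 5 had an unadjusted p under 0.05. The smallest edgeR adjusted p among the 14 was 0.926. For 8 of the 14, the highest 2 calves held over 50% of the summed CPM of the group with the higher mean. In 2 of the 14, ENSBTAG00000047370 and ENSBTAG00000047042, a single calf fed at 6 h held over 50% of that sum (98.6% and 93.8%). Both were counted as lower at 12 h, but their medians were higher there. The median of ENSBTAG00000047370 was 3.70 normalised CPM at 12 h and 2.87 at 6 h. For ENSBTAG00000047042 it was 18.65 at 12 h and 11.01 at 6 h. The group medians of normalised CPM differed by less than 1.5-fold in 3 of the 14.

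The 4 genes described next are those with the smallest p in each direction, 2 higher and 2 lower at 12 h. They are given as values of single calves, and none of them passed the test (edgeR adjusted p = 0.889 for each). Their confidence intervals hold for 1 gene at a time and take no account of the choice among 11429 genes. An interval clear of zero is therefore not a call.

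ENSBTAG00000018496 ran from 8.37 to 19.9 normalised CPM in the calves fed at 6 h, with a median of 14.7, and from 17.4 to 25.3 in those fed at 12 h, with a median of 20.4. All 9 calves at 12 h lay above the median at 6 h, and 6 of them lay above every calf fed at 6 h, so the groups overlapped in a narrow range. The level at 12 h was 1.45 times that at 6 h, a log2 fold change of 0.53 with an SE of 0.134 (95% confidence interval 0.26 to 0.81). The gene was measured by 14 to 139 counts per calf.

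ENSBTAG00000047957 ran from 9.92 to 22.3 normalised CPM at 6 h (median 16.8) and from 18.3 to 33.9 at 12 h (median 25.1). Again all 9 calves at 12 h lay above the median at 6 h and 6 lay above all calves at 6 h. The level at 12 h was 1.56 times that at 6 h, a log2 fold change of 0.64 with an SE of 0.167 (95% confidence interval 0.30 to 0.98). Counts ran from 10 to 126 per calf.

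ENSBTAG00000004066 had the smallest unadjusted p of all genes in edgeR (0.000143). It ran from 14.1 to 26.0 normalised CPM at 6 h (median 20.1) and from 9.88 to 16.6 at 12 h (median 13.2). At 12 h, 7 calves were lower than any calf at 6 h, and the other two overlapped with the lowest calves at 6 h. The log2 fold change was -0.59 (SE 0.139, 95% confidence interval -0.88 to -0.31), which made the level at 6 h 1.51 times that at 12 h. Counts ran from 15 to 83 per calf.

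ENSBTAG00000002907 was the only gene whose groups did not overlap (0.00875% of all 11429 genes for lower at 12 h, and 0% for higher). For a gene with no difference, full separation of 9 calves from 9 has an exact permutation p of 4.11e-05. Among 11429 genes, a gene without overlap is therefore not by itself a sign of a difference. ENSBTAG00000002907 ran from 74.4 to 91.3 normalised CPM at 6 h (median 80.8) and from 46.9 to 72.9 at 12 h (median 66.2). The highest calf at 12 h and the lowest at 6 h were thus close to each other. The log2 fold change was -0.35 (SE 0.0875, 95% confidence interval -0.53 to -0.17), and the level at 6 h was 1.27 times that at 12 h. With 77 to 411 counts per calf, it had the most counts of the 4.

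In all 4 genes the mean of the calves fed at 0 h lay between those of both delayed groups. It was 17.4 ± 2.09 normalised CPM for ENSBTAG00000018496 (SD, n = 9), against 14.7 ± 3.52 at 6 h and 20.7 ± 2.74 at 12 h. For ENSBTAG00000047957 it was 20.7 ± 5.25, against 16.6 ± 4.84 at 6 h and 25.9 ± 6.10 at 12 h. For ENSBTAG00000004066 it was 16.0 ± 3.16, against 19.8 ± 3.44 and 13.0 ± 2.30. ENSBTAG00000002907 stood at 79.9 ± 11.6 in the calves fed at 0 h, close to the 82.0 ± 5.65 at 6 h, and at 64.3 ± 8.24 at 12 h. The means at 6 h and 12 h thus lay on opposite sides of the mean at 0 h. The genes were picked as the extremes of the difference between 6 h and 12 h. That choice by itself tends to place the 0 h mean between the other means. No order of response to the feeding times can therefore be read from these genes, and their place relative to 0 h was not tested.

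**Figure D3:**
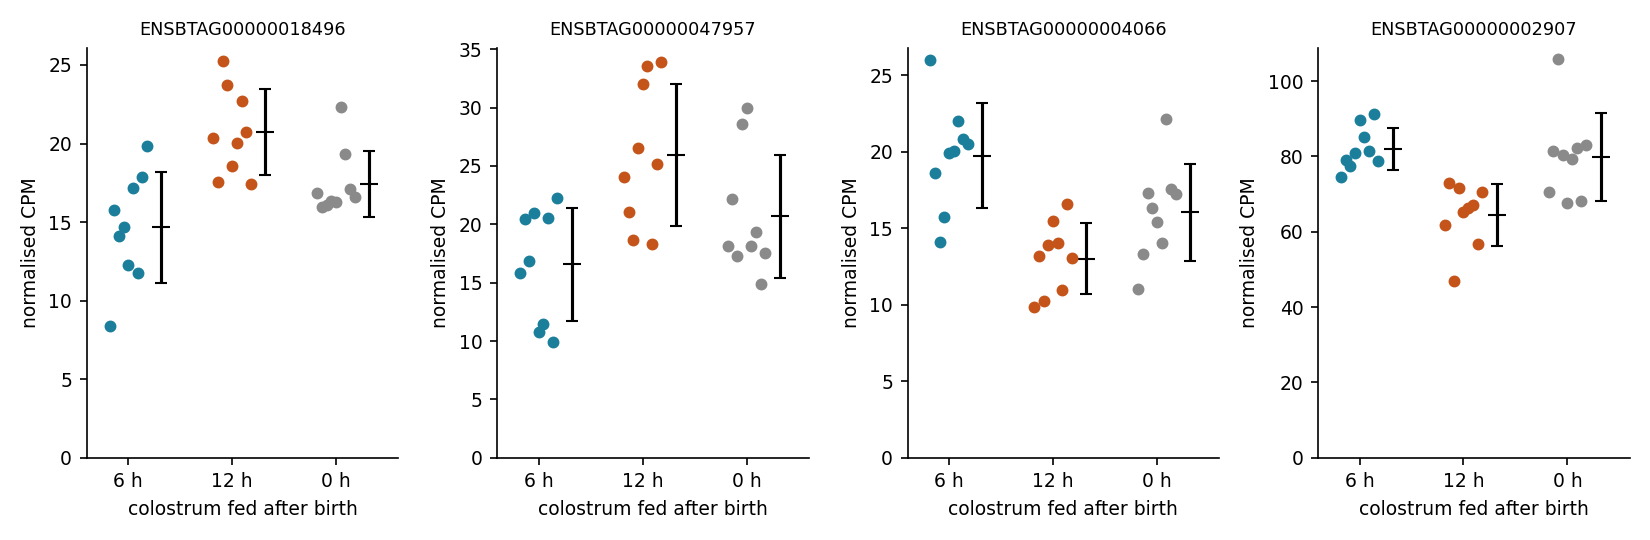
Normalised CPM (vertical axes, from 0) of the 4 genes with the smallest p, by feeding time; each point is 1 calf, and each bar gives the group mean with its SD (n = 9). ENSBTAG00000018496 and ENSBTAG00000047957 are higher at 12 h with overlap, ENSBTAG00000004066 is lower with overlap, and in ENSBTAG00000002907 the highest calf at 12 h (72.9) lies below the lowest at 6 h (74.4).

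The libraries of the compared groups differed in size. Totals ran from 972578 to 2262714 counts at 6 h and from 1137558 to 7125552 at 12 h, and 5 of the 9 libraries at 12 h were larger than any at 6 h. The difference had an exact permutation p of 0.0131 (two-sided) and an adjusted p of 0.105 over 8 library measures. The 4 genes are described below in both parts of the 12 h group. Their direction could not differ between these parts, because all 9 calves at 12 h lay on the same side of the 6 h mean in each gene. The split therefore does not test whether library size mattered. In the 4 libraries at 12 h within the range of the 6 h totals, ENSBTAG00000018496 stood at 20.1 ± 3.67 normalised CPM (SD, n = 4), and in the 5 larger ones at 21.2 ± 2.08 (SD, n = 5). For ENSBTAG00000047957 these means were 24.4 ± 6.71 and 27.1 ± 6.06. They were 11.6 ± 1.77 and 14.2 ± 2.11 for ENSBTAG00000004066. For ENSBTAG00000002907 they were 63.0 ± 11.8 and 65.4 ± 5.37. With the 5 larger libraries left out, edgeR again called 0 genes, and 486 had an unadjusted p under 0.05.

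The number of genes with at least 1 count changed its direction once library size was taken out. As deposited, 17148 ± 1264 genes had a count at 12 h and 16319 ± 749 at 6 h (SD, n = 9; exact permutation p = 0.108). After each library was thinned at random to the smallest total, 972578 counts, the numbers were 15471 ± 377 at 12 h and 15721 ± 521 at 6 h (exact permutation p = 0.258). Neither difference passed the threshold, with adjusted exact permutation p-values of 0.432 and 0.516.

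**Figure D4:**
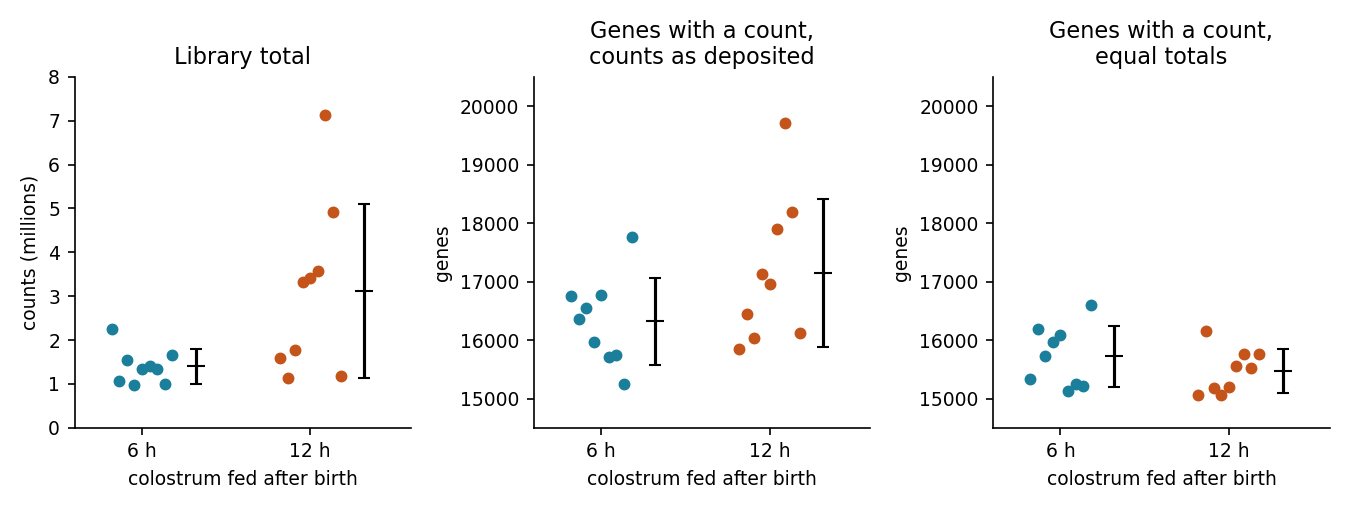
Library total in counts, on an axis scaled by 1e6 (left), genes with a count as deposited (middle) and genes with a count at equal totals of 972578 (right), by feeding time; each point is 1 calf, each bar gives the group mean with its SD (n = 9), and the gene axes do not start at 0. Of the libraries at 12 h, 5 lie above all at 6 h in total, and the higher number of genes at 12 h in the middle panel is absent from the right panel.

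Genes too low for the main test were compared by the number of calves in which they were seen at equal totals. At 972578 counts, 12136 genes had a count in all 18 calves and 3286 in none. Of the others, 5033 were seen in 3 to 15 calves and were tested, and 5019 of these lay outside the main test. Fisher's exact test with Benjamini-Hochberg adjustment called 0 of the 5033 (0%), and the smallest adjusted p was 1. At an unadjusted exact p under 0.05 there were 73 genes (1.45%), of which 29 were seen in more calves at 12 h and 44 in more calves at 6 h. Without a test, 1780 genes were seen in more calves at 12 h, 2406 in more calves at 6 h, and 847 in as many. All these genes share the same 18 libraries and are not independent of each other. The mean number of genes per library at equal totals was 15471 at 12 h and 15721 at 6 h (exact permutation p = 0.258). A single gene seen in all 9 calves of one group and none of the other would have an adjusted p of 0.207, and 5 such genes would have been needed for a call.

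Which gene of few counts came nearest to a call depended on the test. By the number of calves it was ENSBTAG00000037921, seen in 0 calves at 12 h and 8 at 6 h (Fisher's exact test, unadjusted p = 0.000411). In edgeR and DESeq2 without a filter it was ENSBTAG00000048249, which is described next. ENSBTAG00000048249 was singled out after its values were seen, and its confidence interval takes no account of that choice. It had 46 counts in 8 of the 9 calves fed at 6 h, and 5 counts in 4 of the 9 fed at 12 h, although the libraries at 12 h held 28046657 counts in all and those at 6 h 12602148. At 6 h it ran from 0 to 7.94 normalised CPM with a median of 4.40, and 6 calves lay above every calf fed at 12 h. At 12 h its highest value was 0.878 and its median 0. The calves fed at 0 h had 12 counts in 4 calves, with a highest value of 4.43 CPM and a median of 0. Without a filter on low counts, its log2 fold change in edgeR was -4.32 (SE 0.805, 95% confidence interval -5.94 to -2.69, adjusted p = 0.0808 over 22939 genes), and in DESeq2 it was -4.24 (SE 0.910, adjusted p = 0.0717).

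Whether ENSBTAG00000048249 passed the threshold depended on the fit. When only the 18 calves compared were fitted without a filter, it was the single gene called (edgeR log2 fold change -4.30, adjusted p = 0.00121). With all libraries thinned to equal totals the edgeR log2 fold change was -3.35 (adjusted p = 0.597), and with the library total in the model it was -3.14 (adjusted p = 0.862). With 1 calf omitted at a time, the log2 fold change lay between -4.85 and -4.03. The gene was called in 3 of these 18 edgeR fits, without replicate 2 (adjusted p = 0.00739), replicate 7 (0.0319) or replicate 9 (0.0195) of the 6 h group. Those 3 calves had the fewest counts of the gene at 6 h (0, 1 and 1). The highest adjusted p of the gene in the 18 edgeR fits was 0.356. At equal totals it was seen in 7 calves at 6 h and 1 at 12 h (Fisher's exact test, unadjusted p = 0.0152, adjusted p = 1).

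The feeding groups did not form separate profiles. Of the squared distance between the 18 profiles, 6.06% lay between the groups, with a median of 5.62% over all splits of 9 against 9 (exact permutation p = 0.340). The first 3 principal components of the 18 calves held 17.4%, 12.1% and 7.73% of the variance. The groups overlapped on each of them, and the smallest exact permutation p was 0.254. At equal totals, 6 of the 9 calves fed at 12 h and 4 of the 9 fed at 6 h correlated more with the rest of their own group than with the other group.

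The calves fed at 12 h looked more alike than those fed at 6 h, but only at the deposited library sizes. The mean squared distance between 2 calves, per gene on the log2 CPM scale, was 0.245 at 12 h and 0.333 at 6 h, a difference of -0.0878 (two-sided exact permutation p = 0.0285). At equal totals it was 0.312 at 12 h and 0.326 at 6 h, a difference of -0.0146 (exact permutation p = 0.432). At deposited sizes the difference kept its direction with each calf left out, from -0.102 to -0.0676. Its exact permutation p was 0.0563 to 0.0761 without replicate 5, 7 or 8 of the 12 h group, or without replicate 2 or 4 of the 6 h group.

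The same held gene by gene. As deposited, the median SD between calves was 0.261 at 12 h and 0.314 at 6 h on the log2 CPM scale, and 33.0% of the genes had the larger SD at 12 h. At equal totals the median SD was 0.318 at 12 h and 0.328 at 6 h, and 5428 genes (47.5%) had the larger SD at 12 h.

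**Figure D5:**
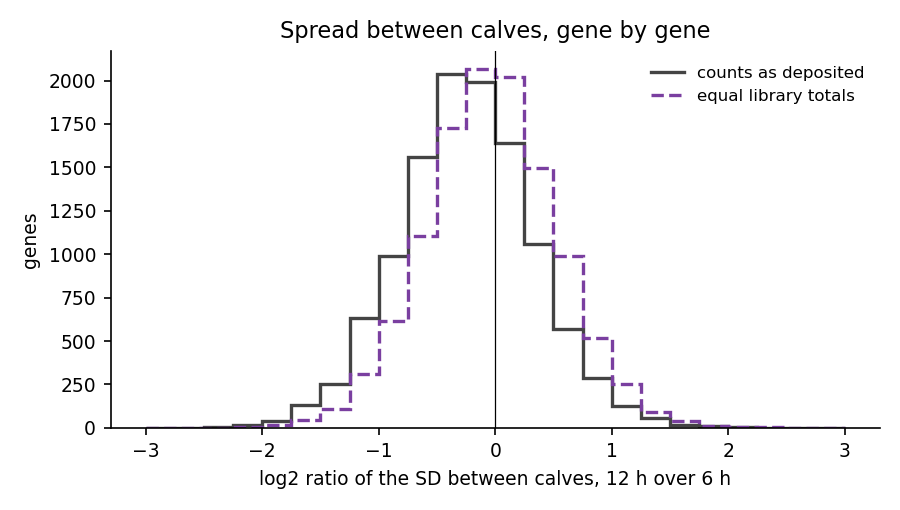
Number of genes (vertical axis) by the log2 ratio of the SD between calves at 12 h to that at 6 h (horizontal axis), from counts as deposited (solid line) and at equal library totals (dashed line). The solid line is shifted to the left of zero (median -0.24), and the dashed line is centred close to zero (median -0.03).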

How the data were processed

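RNA from the ileum of 27 calves, 9 per feeding time, was sequenced after library preparation with TruSeq version 2 (per the labels' protocols), which does not mark strand. The authors deposited 1 table of raw counts, with a row per gene and a column per calf. Tools named in the submitters' processing notes are HTSeq, SAMtools 1.4, TopHat and TopHat2 2.1.1, with the build UMD3.1; the annotation release, the strand setting and the treatment of reads with several matches were not given in the sources used, so genes with near-identical copies or an antisense partner are uncertain. Columns were matched to calves by the names in the labels, with 0 unmatched and 0 rows that name no gene.

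The gene test was edgeR 4.0.16 in R 4.3.3: filterByExpr (minimum count 10, minimum total 15, 9 libraries, or 6.28 CPM) kept 11429 genes and removed 13187, totals were scaled by TMM, and a robust quasi-likelihood model was fitted to all 27 libraries, and p-values were adjusted by Benjamini-Hochberg across all genes kept. Log2 CPM carried a prior count of 2. Measures of libraries and profiles were tested by exact permutation over all 48620 splits of 9 against 9 (smallest p 4.11e-05). The tests were tested on simulated data. Alternatives included DESeq2 1.42.0 and limma 3.58.1 voom; figures were drawn in Python 3.11.15.

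The groups, gene lists and tests were chosen with earlier results of these data known. The gene lists could not be applied without names. The rule for named genes then took the 2 genes higher and the 2 lower with the smallest p. Fits without a filter combined with another change were added after seeing the data. Each library is 1 column titled as a replicate of its group, and separate calves are described in the series' design.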

Additional observations from a re-analysis of the deposited data

Results flagged for a closer look

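Each library measure and named gene was examined for a calf separated from the remaining 8 of its feeding group by a wide gap. Such a calf was found in 3 of 28 sets of values, and chance alone gives about 5% of sets. Replicate 7 of the 12 h group, the largest library, had 42.7% of its counts in its top 10 genes, while the next calf had 36.9%. Replicate 9 of the 12 h group stood at 31.2 on the third principal component, with the next calf at 7.05. Replicate 3 of the 0 h group stood at 105.9 normalised CPM of ENSBTAG00000002907, with the next calf at 83.1; it takes no part in the difference between 12 h and 6 h beyond the estimate of the spread.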

How the results depend on the processing

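With the main filter on low counts kept, 0 genes were called higher and 0 lower under RLE size factors, no robust option or thinned counts. The same held for the 18 libraries alone, the library total as a covariate, and without the 5 largest 12 h libraries. It also held for limma voom, an adjusted p under 0.1, and with each of 18 calves left out (0 to 0). A filter of 1 CPM in 9 libraries in place of the main filter (14983 genes tested) gave 0 higher and 0 lower. DESeq2 and edgeR without a filter also called 0. Genes at an unadjusted p under 0.05 numbered 585, 431 with the library total as a covariate, 1338 without a filter (of 22939 genes tested), and 487 to 757 with a calf left out. Without a filter this number was 1359 with RLE size factors, 1187 at equal totals, 1265 with the library total, 1428 for the 18 libraries alone and 1085 with the replicate block; more genes were tested in these fits.

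The labels do not tie the replicate numbers to a shared litter or day, and the data gave no pairing: same-numbered calves at 12 h and 6 h had correlations of their deviations from -0.243 to 0.265, with 2 of 9 pairs over 0.1, and 2 of 18 calves correlated best with their own number. With the replicate block, 0 genes were called and 547 had an unadjusted p under 0.05. Without a filter, the 18 libraries alone gave 0 higher and 1 lower, and the replicate block 45 higher and 38 lower. In all 83 of these genes the groups overlapped, the smallest p was 1.5e-140, and 0 of the 66 tested with the filter were called there; the cause was not tested, and the adjusted p of 1.35e-06 for ENSBTAG00000048249 (log2 fold change -4.37) comes from that fit.

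Picked on these counts, the 4 named genes kept direction in all 11 other fits and with each calf left out, a weak test. Log2 fold changes were 0.43 to 0.61 for ENSBTAG00000018496, 0.55 to 0.77 for ENSBTAG00000047957, -0.80 to -0.52 for ENSBTAG00000004066 and -0.38 to -0.31 for ENSBTAG00000002907. Their lowest adjusted p was 0.395. The difference in genes with a count, 12 h minus 6 h, was -249.8 at equal totals, -334.8 to -140.3 with a calf left out, and 828.8 without thinning. The share of distance between groups ran from 5.82% to 7.39% with a calf left out. The difference in spread was -0.0878, -0.102 to -0.0676 with a calf left out, and -0.0146 at equal totals. Genes seen in more calves of one group numbered 0 after adjustment in each alternative, and 73 at an unadjusted p under 0.05, 144 without thinning and 37 at 3 counts.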
